A study of Mus musculus with 8 samples.

Results

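Amino acid transporter genes were examined in islets of Langerhans of mice that carry a human islet amyloid polypeptide (hIAPP) transgene and of wild-type (WT) mice, with and without 4-phenylbutyrate (PBA). The members were genes of the SLC1, SLC7, SLC36, SLC38 and SLC43 families and the heavy chain genes Slc3a1 and Slc3a2. Where a gene had several probe sets, the one that was brightest on average was read, and 38 of the 17097 genes on the array were members. By family these were 6 SLC1, 2 SLC3, 15 SLC7, 3 SLC36, 9 SLC38 and 3 SLC43 genes. RefSeq holds 42 such symbols, so not every gene of these families was read. Slc1a4, a neutral amino acid exchanger of the SLC1 family, was not analysed here.

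Total RNA was hybridised to 8 Affymetrix arrays, 2 in each of 4 groups, all from mice of an FVB/N background at the age of 20 weeks. The groups were hIAPP transgenic mice given PBA, untreated hIAPP transgenic mice, WT mice given PBA and untreated WT mice. PBA was given in water at 1 g/kg/day for 12 weeks, from the age of 8 weeks. The transgene is named in the labels as driven by an insulin gene promoter (Ins2), which is active in beta cells, whereas the RNA is that of whole islets, and the labels do not say whether an array holds 1 animal or a pool. In such bulk RNA, fewer cells of a type and less RNA per cell cannot be told apart.

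Amino acid transporters set how much of each amino acid a cell takes up, gives off or exchanges. The SLC7 light chains reach the cell surface as pairs with a heavy chain, CD98hc (Slc3a2) or rBAT (Slc3a1), and exchange large neutral, cationic or acidic amino acids. SLC38 proteins carry glutamine and other small neutral amino acids with sodium, and SLC36 proteins carry small amino acids with protons. In islets, arginine and leucine prompt insulin release, and glutamine uptake through Slc38a5 is known to drive growth of alpha cells. Amino acid supply is also read by mTORC1 at the lysosome and by the transcription factor ATF4, which raises several transporter genes when amino acids run short.

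All values are levels on the log2 scale of robust multi-array averages (RMA), rounded to 1 decimal. Among 23 probe sets for non-specific binding the median was 3.1 and the 95th percentile 4.68, called the control percentile here and taken as the edge of background. Precision is limited by having 2 arrays in a group. Across all genes, Pearson's correlation was 0.993 to 0.994 between the 2 arrays of a group and 0.972 to 0.994 between groups. On WT PBA 1 the spiked-in controls for hybridisation were dim, at a median of 6.95, where the other 7 arrays had 9.80 to 10.2. The 16 beta cell markers measured were above the control percentile on every array. The median level of all genes was 5.9 on both untreated hIAPP arrays and 5.7 on the other arrays.

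Of the 38 transporter genes, 17 were above the control percentile on all 8 arrays, 5 on some arrays and 16 on none. The 17 were the heavy chain gene Slc3a2, 7 SLC7 genes (Slc7a1, Slc7a2, Slc7a4, Slc7a5, Slc7a6, Slc7a8 and Slc7a14), the lysosomal transporter gene Slc36a1, 6 SLC38 genes (Slc38a2, Slc38a4, Slc38a5, Slc38a6, Slc38a9 and Slc38a10), Slc43a2 and Slc43a3. Slc1a5, Slc7a3, Slc7a7, Slc38a1 and Slc38a7 were above it on 2 to 6 arrays. The 16 at or below it everywhere were the glutamate transporter genes Slc1a1, Slc1a2, Slc1a3, Slc1a6 and Slc1a7, the heavy chain gene Slc3a1, Slc7a9 to Slc7a13, Slc7a15, Slc36a2, Slc36a3, Slc38a3 and Slc43a1. With the deposited values none of these 16 passed in any of the 6 comparisons, although Slc1a2 and Slc3a1 did with centred arrays, as described with the scaling. A level so near background does not show whether a gene is transcribed.

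**Figure D1:**
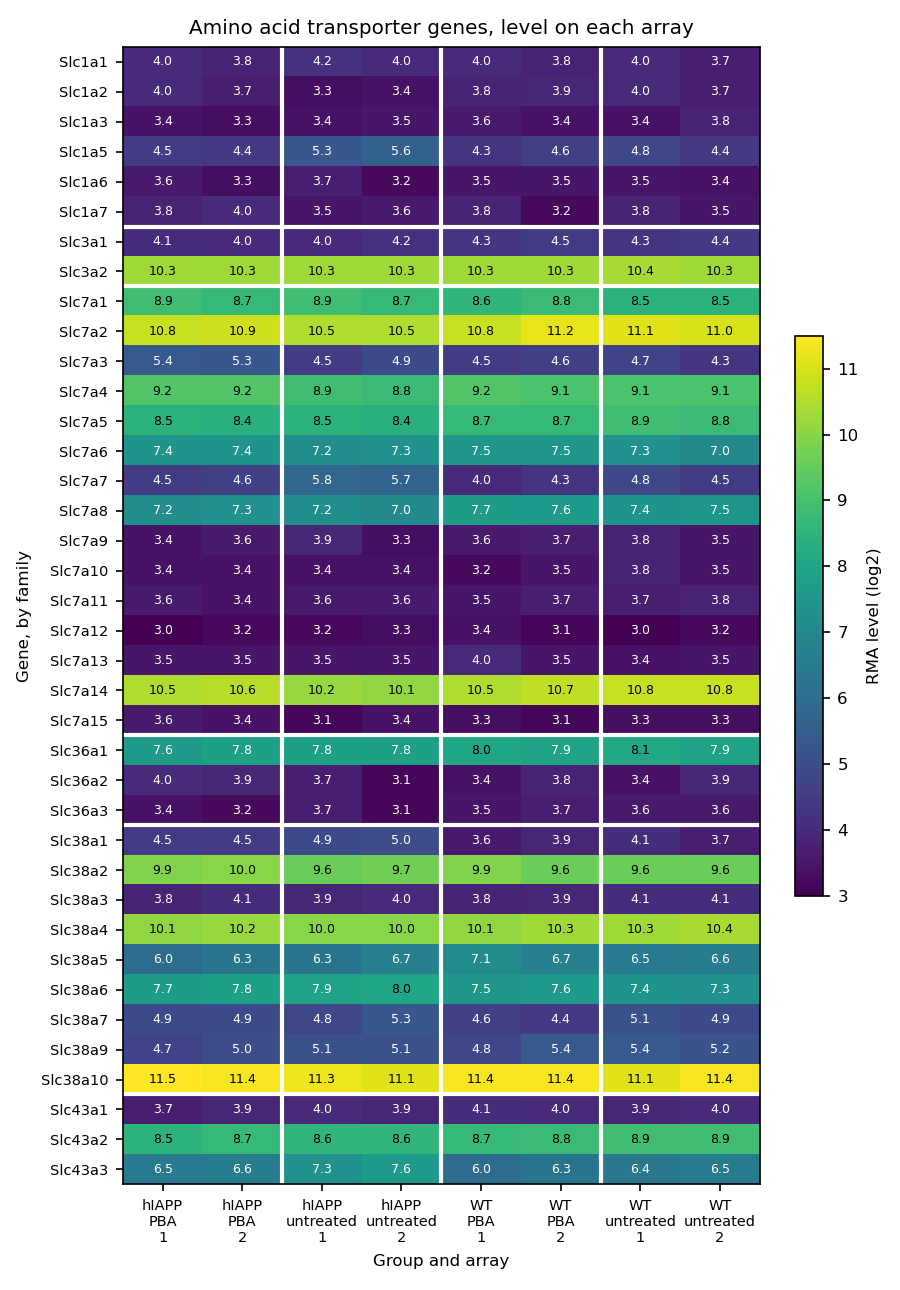
Level (log2) of the 38 transporter genes, 1 row per gene by family and 1 column per array, with the value written in each cell and brighter colours for higher levels. Dark rows are genes near the non-specific controls, whose 95th percentile was 4.68, and Slc3a2 is between 10.3 and 10.4 in every column.

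Slc3a2 codes for CD98hc, the chain that brings light chains such as those of Slc7a5 to the cell surface. It was at 10.3 and 10.3 in hIAPP PBA islets, 10.3 and 10.3 in untreated hIAPP islets, 10.3 and 10.3 in WT PBA islets, and 10.4 and 10.3 in untreated WT islets. Its range over the 8 arrays, 0.1, was the smallest of the 38 members and equals 1 step of the rounding. The largest range was that of Slc7a7, with 1.8.

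Slc7a11 codes for the cystine and glutamate exchanger xCT, a known ATF4 target. It stayed at background, with 3.6 and 3.4 in hIAPP PBA islets, 3.6 and 3.6 in untreated hIAPP islets, 3.5 and 3.7 in WT PBA islets, and 3.7 and 3.8 in untreated WT islets. The groups overlapped or lay within 1 rounding step of each other. Its second probe set was at background too, with a mean of 3.54 over the arrays.

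The ATF4 site is the C/EBP-ATF response element, searched for here as TGATGNAA on both strands in the 250 bases before a gene's start (RefSeq windows, build GRCm38.p6). A window was given for 27 of the 38 members. The motif stood in 3.45% of all 32851 windows, and in 3 of the 38 windows of members, which belong to Slc7a11 and Slc7a7. The Slc7a11 window holds it 2 times, a number that 0.0396% of all windows reach. These promoters are shown because Slc7a11 carries the element and stayed at background, and Slc7a7 carries it and moved most. Slc7a14 fell in untreated hIAPP islets and holds none in the window shown. Each sequence is the 250 bases 5′ of the start on the minus strand, 5′ to 3′, with motif matches in capitals. Further Slc7a7 sequence upstream, up to the end of the annotated gene at position 54420068, was not searched. The annotated genes extend to position 50499087 for Slc7a11 and 31310567 for Slc7a14. The Slc7a11 window thus lies inside its gene, and the Slc7a14 window almost wholly inside its gene. The windows lie at chr3:50443614-50443863 for Slc7a11, at chr14:54417945-54418194 for the first of the 5 Slc7a7 starts in that table, and at chr3:31310320-31310569 for Slc7a14.
Slc7a11: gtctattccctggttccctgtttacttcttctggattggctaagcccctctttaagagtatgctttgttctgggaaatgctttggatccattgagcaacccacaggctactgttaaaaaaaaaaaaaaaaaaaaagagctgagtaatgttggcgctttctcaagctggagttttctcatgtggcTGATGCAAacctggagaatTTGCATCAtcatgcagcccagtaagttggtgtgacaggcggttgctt
Slc7a7: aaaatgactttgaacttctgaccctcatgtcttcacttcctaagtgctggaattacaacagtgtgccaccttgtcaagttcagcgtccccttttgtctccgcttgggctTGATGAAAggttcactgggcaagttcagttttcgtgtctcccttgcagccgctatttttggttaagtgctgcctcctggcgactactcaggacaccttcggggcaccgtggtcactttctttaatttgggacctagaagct
Slc7a14: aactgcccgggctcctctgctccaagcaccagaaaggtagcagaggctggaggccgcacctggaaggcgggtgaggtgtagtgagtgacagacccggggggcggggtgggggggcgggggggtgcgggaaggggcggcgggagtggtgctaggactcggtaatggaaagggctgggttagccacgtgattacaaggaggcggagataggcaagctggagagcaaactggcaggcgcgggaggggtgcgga
In Slc7a11 the matches end 59 and 40 bases before the start, on opposite strands. In Slc7a7 the match ends 134 bases before the start that follows it, and another start listed has a match that ends 236 bases before it. A match in these letters is a description and shows no binding.

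The comparison of untreated hIAPP with untreated WT islets asks which transporter genes the transgene changed. In hIAPP islets 5 members rose, Slc7a7, Slc38a1, Slc43a3, Slc1a5 and Slc38a6, and 2 fell, Slc7a14 and Slc7a5. That is 7 of 38 members past the threshold of an adjusted p of 0.05 in limma, where 11.0% of all genes passed, 7.77% higher and 3.19% lower. The median change of the members was -0.05, as it was over all genes. The 5 that rose included 1 SLC1, 1 SLC7, 2 SLC38 and 1 SLC43 gene.

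Slc7a7 codes for y+LAT1, the light chain that exports cationic amino acids in exchange for neutral ones and that macrophages are known to use. Its level was 5.8 and 5.7 in untreated hIAPP islets, against 4.8 and 4.5 in untreated WT islets. The WT arrays lay on either side of the control percentile. The log2 fold change was 1.10 (SE 0.15, adjusted p = 0.0039). The call was lost without WT untreated 2 (0.95, adjusted p = 0.0502) and without hIAPP untreated 1 (1.05, adjusted p = 0.0633).

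Slc43a3 belongs by sequence to the LAT3 and LAT4 family but is known to carry purine nucleobases, and endothelial cells express it. It was at 7.3 and 7.6 in untreated hIAPP islets, against 6.4 and 6.5 in untreated WT islets. The difference was 1.00 on the log2 scale (SE 0.15, adjusted p = 0.0057). Its single probe set was above the control percentile on every array. The call was lost without WT untreated 1 (0.95, adjusted p = 0.0687), WT untreated 2 (1.05, adjusted p = 0.0604) or hIAPP untreated 2 (0.85, adjusted p = 0.0556).

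In the SLC38 family, Slc38a1 and Slc38a6 rose. Slc38a1 codes for SNAT1, a glutamine carrier. It was at 4.9 and 5.0 in untreated hIAPP islets and at 4.1 and 3.7 in untreated WT islets. The log2 fold change was 1.05 (SE 0.16, adjusted p = 0.0066). Both WT arrays were within background, so the rise is at least 1.21-fold when it is counted from the control percentile. The second Slc38a1 probe set was 0.70 higher in hIAPP islets. Slc38a6, whose substrate is less settled, was at 7.9 and 8.0 in untreated hIAPP islets, against 7.4 and 7.3 in untreated WT islets (0.60, SE 0.10, adjusted p = 0.0109). Its second probe set lay at background and differed by 0.10. Slc38a1 was not past the threshold without WT untreated 2 (0.85), hIAPP untreated 1 (1.10) or hIAPP untreated 2 (1.00), with adjusted p up to 0.0774. Slc38a6 was not past it without any 1 of the 4 untreated arrays (0.55 to 0.65, adjusted p up to 0.0806).

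Slc1a5 codes for ASCT2, which exchanges glutamine and other neutral amino acids. Untreated hIAPP islets had levels of 5.3 and 5.6, and untreated WT islets had 4.8 and 4.4. The log2 fold change was 0.85 (SE 0.18, adjusted p = 0.0246). Leaving out any 1 of the 8 arrays, those of the PBA groups included, ended this call. The change was then 0.65 to 1.05, and it stayed at 0.85 when the array left out was of a PBA group.

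Slc7a14, a gene of the cationic amino acid transporter branch whose protein is found in lysosomes, had levels of 10.2 and 10.1 in untreated hIAPP islets and 10.8 and 10.8 in untreated WT islets. It fell by 0.65 on the log2 scale (SE 0.11, adjusted p = 0.0100), and its second probe set was 0.85 lower. It was also the 1 member that passed in a fit of nothing but the 4 untreated arrays. Without any 1 of those 4 arrays in the fit of all groups the call was lost (-0.70 to -0.60, adjusted p up to 0.0760).

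Slc7a5, the gene of the large neutral amino acid exchanger LAT1, had levels of 8.5 and 8.4 in untreated hIAPP islets, against 8.9 and 8.8 in untreated WT islets. It fell by 0.40 (SE 0.10, adjusted p = 0.0448). Like Slc1a5, it lost its call whichever of the 8 arrays was left out, at -0.45 to -0.35 with adjusted p of at most 0.1685. LAT1's heavy chain gene Slc3a2 differed by -0.05 between the same groups (SE 0.09, adjusted p = 0.8178).

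**Figure D2:**
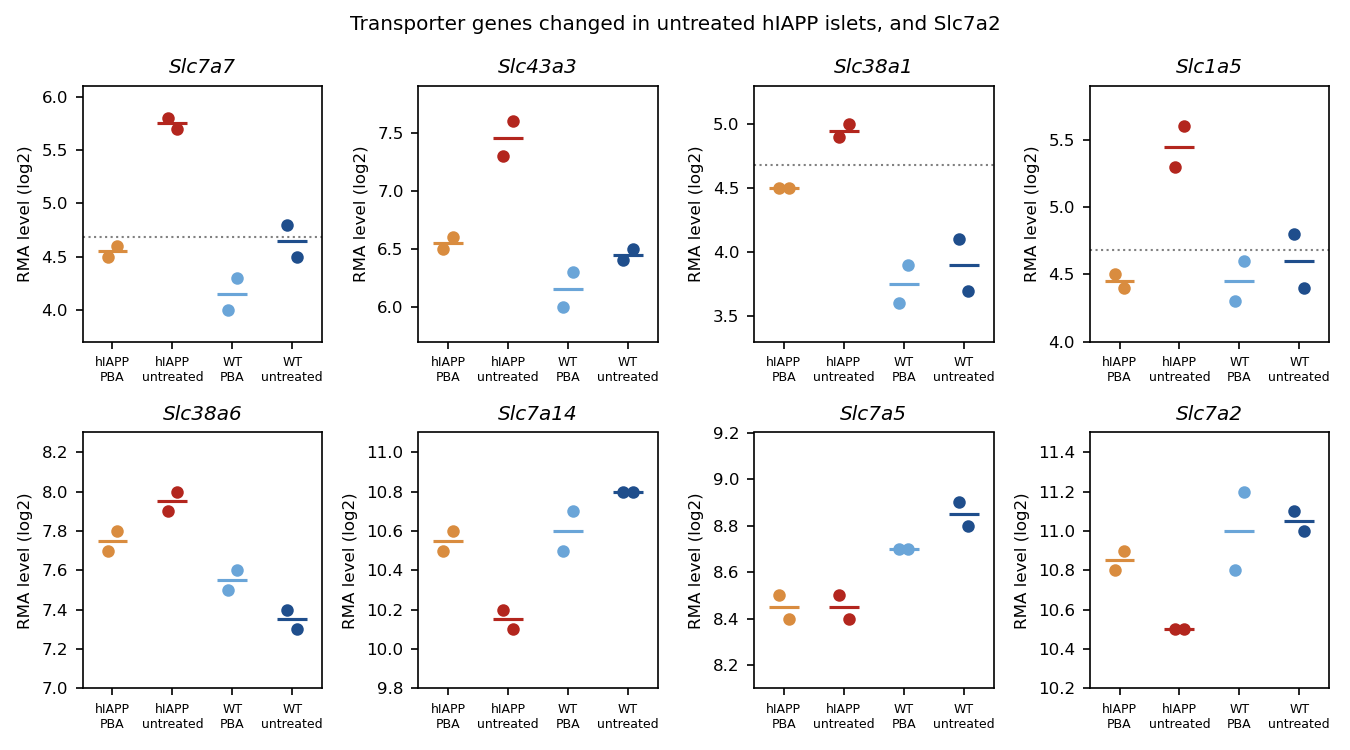
Level (log2) on each array of the 7 members that passed in untreated hIAPP against untreated WT islets, and of Slc7a2. Points are arrays, bars are group means (n = 2), each panel has its own axis that does not start at 0, and the dotted line marks the control percentile (4.68) where it falls in the panel. In the first 5 panels the untreated hIAPP arrays are the highest of the 8.

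Slc7a2, the gene of the arginine and lysine carrier CAT2, was just outside the threshold. It was at 10.5 and 10.5 in untreated hIAPP islets, against 11.1 and 11.0 in untreated WT islets (-0.55, SE 0.14, adjusted p = 0.0512). Its other 3 probe sets were 0.60 to 0.80 lower in hIAPP islets, and the mean of its probe sets passed (-0.65, adjusted p = 0.0093). The same setting ended the calls of Slc1a5 (0.52, adjusted p = 0.0534) and Slc38a6 (0.35, adjusted p = 0.0598). On the remaining arrays Slc7a2 was at 10.8 and 10.9 in hIAPP PBA islets and at 10.8 and 11.2 in WT PBA islets, so untreated hIAPP islets were the lowest of the 4 groups. The CAT1 gene Slc7a1, another arginine and lysine carrier, had 8.9 and 8.7 in hIAPP PBA islets and 8.6 and 8.8 in WT PBA islets. It had 8.9 and 8.7 in untreated hIAPP islets, against 8.5 and 8.5 in untreated WT islets (0.30, adjusted p = 0.1980).

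Among the remaining members, Slc7a8 (LAT2, large neutral amino acids) had 7.2 and 7.0 in untreated hIAPP islets, against 7.4 and 7.5 in untreated WT islets (-0.35, adjusted p = 0.0989). Slc38a4 (SNAT4) had 10.0 and 10.0 in untreated hIAPP islets and 10.3 and 10.4 in untreated WT islets (-0.35, adjusted p = 0.0923). Neither passed. Their groups did not overlap, but neither did those of Slc7a10, Slc7a11 and Slc38a3, which lie at background. With PBA, Slc7a8 had 7.2 and 7.3 in hIAPP islets and 7.7 and 7.6 in WT islets, and Slc38a4 had 10.1 and 10.2 in hIAPP islets and 10.1 and 10.3 in WT islets. The 31 members that did not pass differed by -0.55 to 0.30.

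The direction of the 7 calls held when every array was centred on its own median, which lowers both untreated hIAPP arrays by 0.2 more than the others. The split did not hold: 5 members were then higher and 10 lower, against 5 and 2 with the deposited values. Over all genes it was 1083 higher and 3264 lower when centred, against 1329 and 545. The median change of all genes was -0.25 when centred, against -0.05 with the deposited values. The 8 members added by centring, all lower, were Slc1a2, Slc36a1, Slc38a4, Slc3a1, Slc43a2, Slc7a2, Slc7a4 and Slc7a8. The doubted arrays were WT PBA 1, dim in the spiked-in controls, and hIAPP PBA 1, lowest in acinar markers. Without both, each PBA group holds 1 array and adds nothing to the estimated spread. For this comparison that is the same fit as one of these 2 groups alone, and no separate check. In a fit of these 2 groups alone the count of 7 members was 1. It was 2 without WT untreated 1, 0 without WT untreated 2, 1 without hIAPP untreated 1 and 1 without hIAPP untreated 2.

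Setting hIAPP PBA against untreated hIAPP islets shows which transporter genes differed with the drug in transgenic mice. This comparison shares the untreated hIAPP arrays with that of the transgene, so the 2 sets of values are not independent. Here 3 of 38 members fell, Slc7a7, Slc1a5 and Slc43a3, and none rose. Over all genes 8.09% passed, 1.78% higher and 6.32% lower. The median change was 0.00 for the members and 0.00 for all genes.

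The y+LAT1 gene Slc7a7 had levels of 4.5 and 4.6 in hIAPP PBA islets, against 5.8 and 5.7 in untreated hIAPP islets. It fell by 1.20 (SE 0.15, adjusted p = 0.0045), and since both PBA arrays were within background its level was at least 2.10-fold lower, counted from the control percentile. ASCT2's gene Slc1a5 had 4.5 and 4.4 in hIAPP PBA islets, against 5.3 and 5.6 in untreated hIAPP islets (-1.0, SE 0.18, adjusted p = 0.0167), at least 1.71-fold lower when counted the same way. Slc43a3 had 6.5 and 6.6 in hIAPP PBA islets and 7.3 and 7.6 in untreated hIAPP islets (-0.90, SE 0.15, adjusted p = 0.0123). In all 3 genes the arrays of the groups did not overlap, which also held for members that did not pass, such as Slc36a2 at background.

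Of the other members changed by the transgene, none passed with PBA with the deposited values of 1 probe set a gene. Slc38a1 had 4.5 and 4.5 in hIAPP PBA islets, against 4.9 and 5.0 in untreated hIAPP islets (-0.45, adjusted p = 0.1447). Slc38a6 had 7.7 and 7.8 in hIAPP PBA islets, against 7.9 and 8.0 in untreated hIAPP islets (-0.20, adjusted p = 0.3016). Slc7a5 had 8.5 and 8.4 in either group. Slc7a14 had 10.5 and 10.6 in hIAPP PBA islets, against 10.2 and 10.1 in untreated hIAPP islets (0.40, adjusted p = 0.0729). Slc7a14 was past the threshold without dim genes (adjusted p = 0.0418), with an intensity trend (0.0149), with the mean of its probe sets (0.53, adjusted p = 0.0179) and with centred arrays (0.60, adjusted p = 0.0162). The mean of a gene's probe sets also brought Slc38a1 past it with PBA (-0.55, adjusted p = 0.0113) and took Slc1a5 out (-0.55, adjusted p = 0.0569).

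Slc7a3, the gene of the cationic carrier CAT3, had its highest levels in hIAPP PBA islets. It was at 5.4 and 5.3 there, 4.5 and 4.9 in untreated hIAPP islets, 4.5 and 4.6 in WT PBA islets, and 4.7 and 4.3 in untreated WT islets. Against untreated hIAPP islets the log2 fold change was 0.65 (SE 0.18, adjusted p = 0.0719), which did not pass. Against untreated WT islets it was 0.85 (SE 0.18, adjusted p = 0.1386) and against WT PBA islets 0.80 (SE 0.18, adjusted p = 0.1551), and neither passed. The hIAPP PBA arrays were above all 6 others, among which both WT PBA arrays were within background.

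In WT mice Slc38a2 had 9.9 and 9.6 with PBA and 9.6 and 9.6 without. This gene of SNAT2, the system A carrier that cells are known to raise when amino acids are short, was at 9.9 and 10.0 in hIAPP PBA islets, against 9.6 and 9.7 in untreated hIAPP islets (0.30, adjusted p = 0.2042). Slc7a4, a CAT relative with no settled substrate, had 9.2 and 9.2 in hIAPP PBA islets, against 8.9 and 8.8 in untreated hIAPP islets (0.35, adjusted p = 0.0729). Its second probe set, at a mean of 7.25 over the arrays, differed by 0.05.

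With each array centred on its median, 6 members were higher and 3 lower with PBA in hIAPP islets, against 0 and 3 with the deposited values. Over all genes it was 2611 higher and 888 lower when centred, against 304 and 1080. The median change of all genes was 0.2 when centred, against 0.0 with the deposited values. The 3 members were no longer past the threshold when an array's acinar level entered the fit as a covariate, in a fit of these 2 groups alone, or without both doubted arrays. The count was 0 without hIAPP untreated 1, without hIAPP untreated 2 or without hIAPP PBA 1, and 1 without hIAPP PBA 2. For Slc7a7 the fits without 1 array gave -1.25 to -1.15 and for Slc43a3 -1.05 to -0.75. Over the other settings, the acinar covariate among them, the change was -1.2 to -1.0 for Slc7a7 and -0.9 to -0.7 for Slc43a3. For Slc1a5 it was -1.05 to -0.55 over those settings. With the acinar covariate 26 of all genes passed, against 1384 without it. Slc1a5 lost its call without any 1 of the 4 hIAPP arrays or of the 2 WT PBA arrays (-1.15 to -0.85, adjusted p up to 0.1277).

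**Figure D3:**
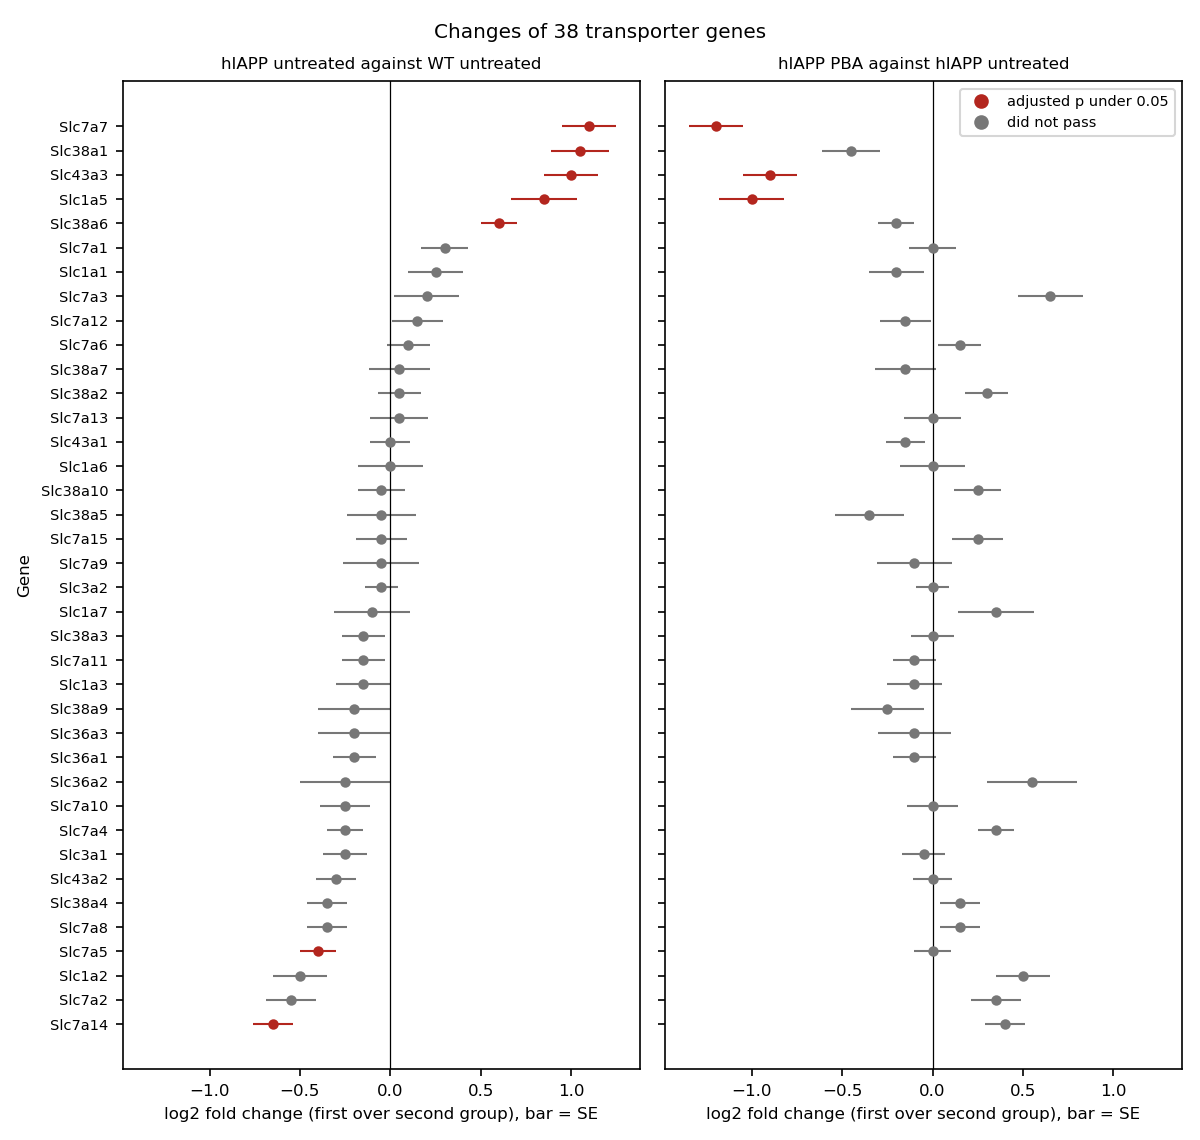
Log2 fold change of each of the 38 members, first-named over second-named group, with its standard error, for untreated hIAPP against untreated WT islets (left) and for PBA-treated against untreated hIAPP islets (right). Red points passed an adjusted p of 0.05, and both panels use the untreated hIAPP arrays. Slc7a7 is at 1.10 on the left and at -1.20 on the right.

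PBA in WT mice changed no transporter gene past the threshold in limma. An unadjusted p below 0.05 was found for 3 of 38 members (7.89%) and 10.5% of all genes, and at the adjusted threshold 0.292% of all genes passed, 0.146% in either direction. Slc7a7 had 4.0 and 4.3 in WT PBA islets, against 4.8 and 4.5 in untreated WT islets (-0.50, SE 0.15, adjusted p = 0.3013). The lysosomal glutamine carrier gene Slc38a7 had 4.6 and 4.4 in WT PBA islets, against 5.1 and 4.9 in untreated WT islets (-0.50, SE 0.17, adjusted p = 0.3782). Both of its WT PBA arrays were within background. Slc7a6 (y+LAT2) had 7.5 and 7.5 in WT PBA islets, against 7.3 and 7.0 in untreated WT islets (0.35, SE 0.12, adjusted p = 0.3723).

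Between hIAPP PBA and WT PBA islets 0 of 38 members passed in limma, against 0.421% of all genes, 0.322% higher and 0.0994% lower. Without adjustment, 8 members (21.1%) and 12.1% of all genes had a p below 0.05. Slc38a5, the SNAT5 glutamine carrier gene, had 6.0 and 6.3 in hIAPP PBA islets and 7.1 and 6.7 in WT PBA islets (-0.75, SE 0.19, adjusted p = 0.2106). It had 6.3 and 6.7 in untreated hIAPP islets and 6.5 and 6.6 in untreated WT islets, so those groups overlapped. Between hIAPP PBA and untreated WT islets 0 members passed in limma, against 0.368% of all genes, 0.252% higher and 0.117% lower. Without adjustment, 9 members (23.7%) and 11.0% of all genes had a p below 0.05. Slc7a5 had 8.5 and 8.4 in hIAPP PBA islets, against 8.9 and 8.8 in untreated WT islets (-0.40, SE 0.10, adjusted p = 0.1936), the same difference as without PBA. Slc38a6 was at 0.40 in that comparison (SE 0.10, adjusted p = 0.2080), and Slc1a5 was at -0.15 (SE 0.18, adjusted p = 0.8160).

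Whether the effect of PBA differed between genotypes was tested as an interaction, which 0 members and 1.96% of all genes passed in limma, 0.269% above 0 and 1.69% below it. The 335 genes behind that share became 0 to 3 when any 1 array was left out. An unadjusted p below 0.05 was found for 8 members (21.1%) and 16.2% of all genes. The term was 0.60 for Slc7a14 (SE 0.16, adjusted p = 0.1102), -0.70 for Slc7a7 (SE 0.21, adjusted p = 0.1522) and -0.85 for Slc1a5 (SE 0.25, adjusted p = 0.1524). With an intensity trend in the variance, 1 member passed, Slc7a14.

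With the deposited values Slc36a1, Slc38a9 and Slc43a1 passed in none of the 6 comparisons, and Slc36a1 was lower in untreated hIAPP than untreated WT islets with centred arrays. Slc36a1 codes for PAT1, a proton-coupled carrier of lysosomes. It had 7.6 and 7.8 in hIAPP PBA islets, 7.8 and 7.8 in untreated hIAPP islets, 8.0 and 7.9 in WT PBA islets, and 8.1 and 7.9 in untreated WT islets. Slc38a9, the lysosomal arginine sensor of mTORC1, had 4.7 and 5.0 in hIAPP PBA islets, 5.1 and 5.1 in untreated hIAPP islets, 4.8 and 5.4 in WT PBA islets, and 5.4 and 5.2 in untreated WT islets. Slc43a1, the gene of the branched-chain amino acid carrier LAT3, was within background, with 3.7 and 3.9 in hIAPP PBA islets, 4.0 and 3.9 in untreated hIAPP islets, 4.1 and 4.0 in WT PBA islets, and 3.9 and 4.0 in untreated WT islets.

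Other genes of amino acid handling were read from lists. Of 28 other measured amino acid transporter genes, 1 rose and 1 fell in untreated hIAPP against untreated WT islets, with a median of -0.05, a share of 7.1% beside the 11.0% of all genes. Slc15a3, a lysosomal histidine and peptide carrier of immune cells, had 6.7 and 6.2 in untreated hIAPP islets, against 4.3 and 4.7 in untreated WT islets (1.95, SE 0.31, adjusted p = 0.0076). Slc6a19, a sodium-coupled neutral amino acid carrier gene, had 5.9 and 6.2 in untreated hIAPP islets, against 6.8 and 6.7 in untreated WT islets (-0.70, SE 0.13, adjusted p = 0.0175). With PBA in hIAPP islets 1 rose and 1 fell of the 28, again 7.1%, beside 8.09% of all genes. Slc15a3 had 5.2 and 4.6 in hIAPP PBA islets, against 6.7 and 6.2 in untreated hIAPP islets (-1.55, SE 0.31, adjusted p = 0.0255). The vesicular neutral amino acid carrier gene Slc6a17 had 8.8 and 8.6 in hIAPP PBA islets and 8.1 and 7.9 in untreated hIAPP islets (0.70, SE 0.13, adjusted p = 0.0193).

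Of 31 measured genes of amino acid sensing and mTORC1, 1 rose and 2 fell in untreated hIAPP islets (median -0.15), a share of 9.7% beside the 11.0% of all genes. With centred arrays 1 was higher and 14 were lower, beside 1083 higher and 3264 lower of 17097 genes, whose median change was then -0.25. Eif4ebp1, the translation repressor that mTORC1 phosphorylates, had 7.8 and 8.0 in untreated hIAPP islets, against 7.1 and 7.1 in untreated WT islets (0.80, SE 0.10, adjusted p = 0.0035). The sestrin gene Sesn3 changed by -0.65 (SE 0.11, adjusted p = 0.0100) and the kinase gene Mtor by -0.55 (SE 0.13, adjusted p = 0.0403). With PBA in hIAPP islets Mtor rose by 0.55 (SE 0.13, adjusted p = 0.0489), the 1 gene of the 31 that passed (3.2%, beside 8.09% of all genes). Of 17 cytosolic aminoacyl-tRNA synthetase genes, Wars (-0.55, adjusted p = 0.0291) and Farsb (-0.40, adjusted p = 0.0350) fell in untreated hIAPP islets, 11.8% beside 11.0% of all genes. With PBA in hIAPP islets Farsb rose (0.40, adjusted p = 0.0430), 5.9% of the list beside 8.09% of all genes. Without any 1 of the 4 hIAPP arrays, none of the calls with PBA in these lists of other transporters, sensing genes and synthetases held.

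Of 25 measured ATF4 targets and amino acid synthesis genes, 5 rose and 2 fell in untreated hIAPP islets, with a median of 0.15. That is a share of 28.0%, beside 11.0% of all genes. The alanine aminotransferase gene Gpt2 had 7.0 and 7.0 in untreated hIAPP islets, against 5.8 and 6.0 in untreated WT islets (1.10, SE 0.11, adjusted p = 0.0012). Ddit4, an inhibitor of mTORC1, changed by 0.90 (SE 0.11, adjusted p = 0.0026) and the secreted stanniocalcin gene Stc2 by 1.05 (SE 0.15, adjusted p = 0.0053). Cbs, which makes cystathionine from homocysteine, changed by -0.80 (SE 0.14, adjusted p = 0.0117). The count was 0 in a fit of these 2 groups alone, which here is the same fit as without both doubted arrays. It was also lower without any 1 array. With PBA in hIAPP islets 4 of the 25 fell and 1 rose, 20.0% beside 8.09% of all genes. The 4 that fell were Ddit4 (-0.75), Gpt2 (-0.75), Stc2 (-0.95) and Cebpb (-0.70), with adjusted p of at most 0.0137. Levels of Atf4 itself went the other way, with 11.1 and 11.1 in hIAPP PBA islets and 10.5 and 10.6 in untreated hIAPP islets. In untreated WT islets Atf4 had 10.7 and 10.7. For the interaction, given below, 12.0% of the list passed, beside 1.96% of all genes. None of the 25 passed with PBA when the acinar level was a covariate, in a fit of these 2 groups alone, without both doubted arrays, without hIAPP PBA 1 or without hIAPP untreated 1. The count was 1 without hIAPP PBA 2 and 1 without hIAPP untreated 2. The interaction term passed for 3 of the 25 with all arrays, and for 0 of the 25 when any 1 array was left out: Ddit4 (-1.25, adjusted p = 0.0168), Gpt2 (-1.05, adjusted p = 0.0250) and Stc2 (-1.30, adjusted p = 0.0364).

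Markers of several cell types moved between the same groups as the transporters. Against untreated WT islets, untreated hIAPP islets had higher levels of 25 of 31 macrophage markers, and 24 were lower with PBA in hIAPP islets. Over all genes 7.77% were higher with the transgene and 6.32% lower with PBA in hIAPP islets. With the acinar level as a covariate 25 macrophage markers were higher with the transgene and 2 lower with PBA, when the calls over all genes with PBA were 26. Without any 1 of the 4 hIAPP arrays 6 to 15 were lower with PBA. In fits of the 2 groups alone, 7 macrophage markers were higher and 1 lower. Their median level was 6.9 and 6.4 in hIAPP PBA islets, 8.4 and 7.9 in untreated hIAPP islets, 5.4 and 5.5 in WT PBA islets, and 6.1 and 6.2 in untreated WT islets. On the linear scale their summed level was 7134 to 7761 in hIAPP PBA islets, 13692 to 17002 in untreated hIAPP islets, 3488 to 3601 in WT PBA islets, and 4642 to 4858 in untreated WT islets. Between 2 and 9 of the 31 lay at or below the control percentile on an array.

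Endothelial markers were higher in untreated hIAPP islets in 13 of 22 genes and lower with PBA in hIAPP islets in 13. These are 59.1% each, beside 7.77% of all genes higher with the transgene and 6.32% lower with PBA. Their summed level was 7715 to 8106 in hIAPP PBA islets, 10694 to 11383 in untreated hIAPP islets, 7004 to 7119 in WT PBA islets, and 7592 to 7716 in untreated WT islets. At most 1 of the 22 lay at or below the control percentile on any array. Of 23 connective tissue markers, 20 were higher in untreated hIAPP islets and 19 lower with PBA, with summed levels of 8493 to 9725 in hIAPP PBA islets, 20608 to 22497 in untreated hIAPP islets, 5572 to 6296 in WT PBA islets, and 5724 to 7414 in untreated WT islets. From 2 to 6 of these lay at or below the percentile. With PBA and the acinar covariate 0 endothelial markers and 2 connective tissue and stellate markers were lower. In the fit of the untreated groups alone, 7 macrophage, 3 endothelial and 10 connective tissue markers were higher with the transgene. Over 17097 genes 353 were higher in that fit. The fit without both doubted arrays leaves 1 hIAPP PBA array, and with PBA it called neither these markers nor any other gene. Of 14 duct markers 4 were higher with the transgene and 3 lower with PBA, and of 7 delta and PP cell markers 3 were higher and 1 lower. Of 13 lymphocyte markers 1 was higher with the transgene and 1 lower with PBA, each 7.7%, near the shares of all genes. Of 6 Schwann cell markers 1 was higher with the transgene. The part of these cells in the changes of Slc7a7, Slc43a3, Slc38a1, Slc1a5, Slc38a6 and Slc15a3 was not tested.

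Beta cell markers moved the other way, with 4 of 16 lower in untreated hIAPP than in untreated WT islets (median -0.35) and 5 of 16 higher with PBA in hIAPP islets (median 0.42), of which 0 passed without any 1 of the 4 hIAPP arrays. Over all genes 3.19% were lower with the transgene, and 1.78% were higher and 6.32% lower with PBA in hIAPP islets. The summed level of the beta cell markers was 49047 to 50220 in hIAPP PBA islets, 40395 to 42789 in untreated hIAPP islets, 51290 to 54872 in WT PBA islets, and 49169 to 51847 in untreated WT islets. Slc7a14 and Slc7a2 were likewise lowest in untreated hIAPP islets, and the part of the beta cell share in their values was not tested. Acinar markers, with a median of 7.95 and 9.65 in hIAPP PBA islets and of 10.85 and 12.15 in untreated hIAPP islets, differed with PBA by a median of -2.35 (3 of 28 past the threshold lower, 1 higher). In WT PBA islets their median was 11.45 and 10.45, and in untreated WT islets 12.00 and 10.40, and the 2 arrays differed widely within every group. Of 8 alpha cell markers 1 (12.5%, beside 7.77% of all genes), Fap, rose in untreated hIAPP islets (3.05, adjusted p = 0.0011), a gene that fibroblasts also express.

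**Figure D4:**
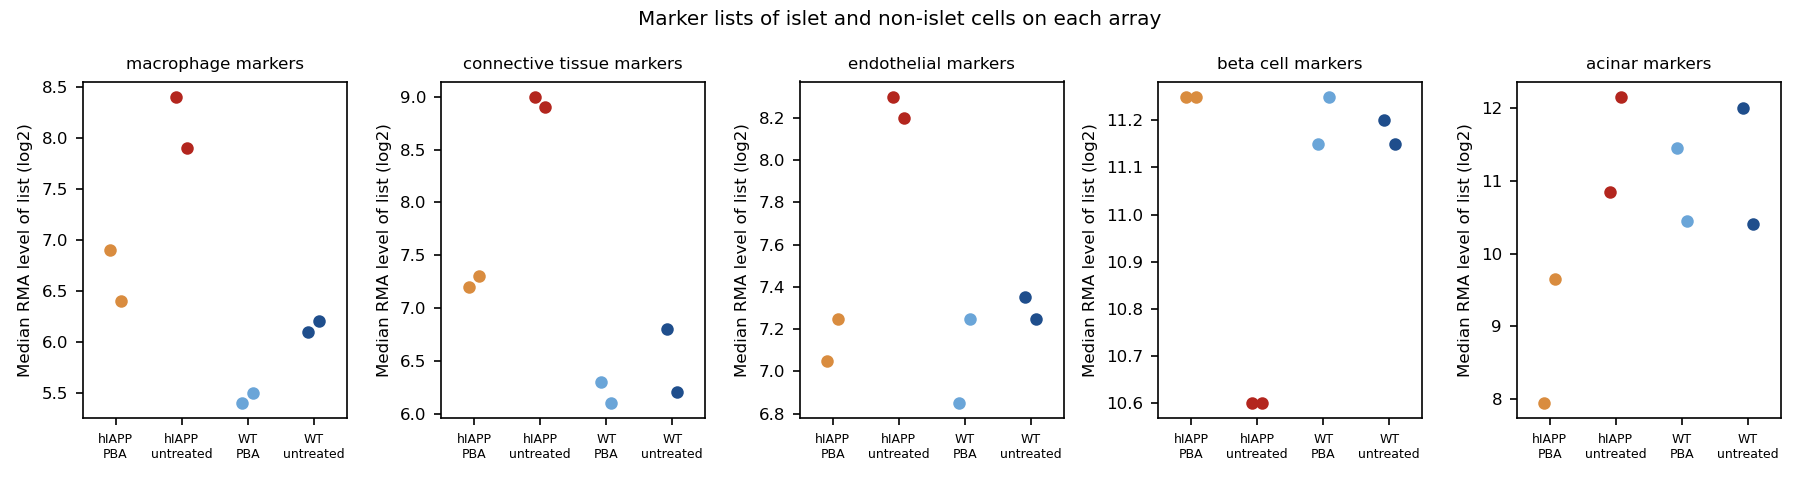
Median level (log2) of 5 marker lists on each array, by group, with 1 point per array and a separate axis for each list that does not start at 0. Macrophage, connective tissue and endothelial lists are highest on the 2 untreated hIAPP arrays, where the beta cell list is lowest (10.60 on both), and acinar levels differ between arrays of 1 group.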

How the data were processed

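Total RNA of islets was hybridised to 8 Affymetrix arrays, and the authors deposited 1 log2 value per probe set and array, made with RMA in the affy package, per the submitters' processing notes, which give no version. RMA corrects background, gives every array the same distribution and combines the probes of a set, which takes out shifts that most genes share. The values were used as deposited. Of 45037 non-control probe sets, 28898 name exactly 1 gene by the platform annotation, 551 several and 15588 none. Symbols and positions follow RefSeq of GRCm38.p6. The probe set with the highest mean stood for a gene.

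Comparisons used limma 3.58.1 (R 4.3.3) and 1 fit of 4 group means to all 8 arrays (4 residual and 3.27 prior degrees of freedom), two-sided, with Benjamini-Hochberg adjustment over 17097 genes and a threshold of 0.05. The fit was tested on simulated data. P-values measure the spread between these arrays, which may be technical. Named were all members past the threshold, 14 transporter genes listed by name, and up to 4 genes per list with the smallest p. The members and lists were chosen with earlier results of these data known. Marker and pathway lists are described by counts and medians. Tables used pandas 2.3.3 and plots matplotlib 3.10.9 in Python 3.11.15. Alternatives tried were a filter on dim genes, an intensity trend, fits of 2 groups, a replicate block, leaving out arrays, an acinar covariate, the mean of a gene's probe sets, and centring.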

Additional observations from a re-analysis of the deposited data

How the results depend on the processing

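For untreated hIAPP against untreated WT islets, leaving out both doubted arrays gives the same fit as the 4 arrays of the groups alone. The count of members past the threshold there, 7, was 1 in that fit and 15 with centred arrays, and lower without any 1 array. It was 5 to 9 under the other alternatives, among them 6 with the mean of a gene's probe sets. For PBA in hIAPP islets the count of 3 was 5 without dim genes, 5 with an intensity trend, 9 with centred arrays, 0 with only the 4 arrays of the groups, 0 without both doubted arrays, 0 with the acinar covariate, 4 with the mean of a gene's probe sets, and 0 to 3 without 1 array. The interaction gave 1 member with an intensity trend and 0 otherwise, and the other 3 comparisons gave 0 throughout. No called member changed direction under any alternative. The cause of these shifts was not tested, although fits of fewer arrays also had fewer degrees of freedom. Over all genes the count of 1874 for the transgene was 484, and that of 1384 for PBA in hIAPP islets was 14, with only the 4 arrays of the groups. With the acinar covariate the 1384 became 26. The 335 genes of the interaction became 0 to 3 without 1 array, 4 with the acinar covariate and 118 with the replicate block. List counts under these settings were added after seeing the data.

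Replicate numbers are shared between groups, but the labels do not say that they pair animals. The correlation of same-numbered deviations between groups was -0.14 to 0.098 across genes. With the replicate block, 5 members passed for the transgene and 3 for PBA in hIAPP islets, and Slc1a5 and Slc7a5 were the 2 lost. A crossed pairing of the untreated groups, chosen after seeing the data, gave 6 members.

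Background limits Slc7a7, Slc38a1, Slc1a5, Slc7a3 and Slc38a7, whose dimmer groups lie near the non-specific controls. Rounding to 1 decimal limits differences of about 0.1.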

Other observations

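Several members lie close together in the genome, and were read side by side. Slc7a7 and Slc7a8 are 302.1 kb apart on chromosome 14. In untreated hIAPP against untreated WT islets Slc7a7 differed by 1.10, past the threshold, and Slc7a8 by -0.35, which did not pass. Slc43a1 and Slc43a3 lie 73.0 kb apart on chromosome 2, and Slc43a1 differed by 0.00 where Slc43a3 changed by 1.00. On chromosome 15, Slc38a1 is 44.0 kb from Slc38a2 and Slc38a2 is 295.1 kb from Slc38a4. The differences there were 1.05 for Slc38a1, 0.05 for Slc38a2 and -0.35 for Slc38a4, of which that of Slc38a1 passed the threshold.

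Probe sets of a gene differed in how far they moved. For Slc7a2 all 4 were lower in untreated hIAPP than in untreated WT islets, by 0.55 to 0.80. For Slc1a5 the bright set differed by 0.85 and the dim set, at a mean of 3.25, by 0.20. The CAT1 gene Slc7a1 had sets at 0.30, 0.25 and -0.15, the last with a mean of 3.95, within background.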
